A study of Mus musculus with 25 samples.

Results

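The comparison described here is that of mouse somatic cell nuclear transfer (SCNT) embryos treated with both trichostatin A (TSA) and RK-701 with SCNT embryos that received neither drug, and its members are the genes of the deposited count table. The members were chosen as the table's gene rows. Of 55375 gene rows, 25794 were tested, namely those on autosomes that averaged 1 read or more per library, and 24915 of these are not reprogramming-resistant genes (RRGs). The RRG list holds genes that rise at this stage in fertilized embryos and were chosen in the study for being lower in SCNT control than in fertilized embryos. The 4 libraries compared, 2 co-treated and 2 control, are part of 25 libraries of 11 groups. All 4 were made from pools of 5 to 10 two-cell embryos collected 28 to 29 h after activation, from wild-type BDF1 (C57BL/6N × DBA2) cumulus cell nuclei placed in enucleated BDF1 oocytes. Both groups were labelled as treated with latrunculin A (LatA), which blocks actin assembly and so keeps chromosomes from being expelled during activation. The co-treated group also received TSA at 25 nM for 8 h and RK-701 at 1 µM for 24 h. The adult donors' age in weeks is not given in the sources used here for BDF1 mice, the replicates are pools of embryos whose separate experiments the labels do not describe, and p-values therefore measure the spread between pools, which may be technical. Because a pool gives 1 total, less RNA per embryo and fewer transcribing embryos cannot be told apart.

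TSA inhibits class I and II histone deacetylases and so leaves histones more acetylated. RK-701 inhibits G9a (encoded by *Ehmt2*) and its partner GLP (*Ehmt1*), which place mono- and dimethylation on lysine 9 of histone H3, a mark of silent chromatin. Mouse embryos start transcribing their own genome in earnest at the two-cell stage while they clear messages stored by the oocyte, and a transferred nucleus has to do this from chromatin set up for a somatic cell. The comparison asks which genes and functions beyond the RRGs differ when both drugs are given.

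The libraries of the 4 pools held 13994840 and 15589564 gene-assigned read pairs in the co-treated group and 16604899 and 9259726 in the LatA control. Values are normalized read counts, in counts per 1000000 reads after TMM scaling (CPM), so that a larger library gives the more precise value. The TMM scaling factor, which corrects for a library's composition, was 0.924 and 0.920 with co-treatment and 1.11 and 1.16 in the control. The control libraries resembled each other less (r = 0.952 over log2 CPM) than those of any other group, and the co-treated libraries gave r = 0.981. All 10 oocyte and two-cell markers were detected in each of the 4 libraries, from 2.05 CPM (*Usp17la*) to 7390 CPM (*Dppa3*). Of 14 cumulus cell markers, 3 were below the limit for testing and *Lhcgr* was at 0 in all 4 libraries. Of the rest, *Amhr2* was between 25.3 and 38.6 CPM and the others did not exceed 5.10 CPM. The summed level of the 36 cumulus and granulosa genes tested was 421 and 401 CPM in the control and 588 and 737 CPM with co-treatment. Without *Gja1* it was 308.5 and 309.9 CPM in the control and 344 and 308 CPM with co-treatment, and the list's median log2 fold change was -0.71, with 2 genes higher and 9 lower at an unadjusted p under 0.05. The part of any residual donor cell RNA in the results was not tested.

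The transcripts of the drugs' own targets were not called. *Ehmt2* was at 30.8 and 30.4 CPM in control replicates 1 and 2 and at 25.0 and 20.9 CPM in co-treated replicates 1 and 2, a log2 fold change of -0.42 ± 0.24 (SE, adjusted p = 0.307). *Ehmt1* gave -0.05 ± 0.23 (adjusted p = 0.951). *Hdac1* was higher by 0.91 ± 0.28 (adjusted p = 0.0397) and *Hdac2* lower, at -0.86 ± 0.23 (adjusted p = 0.0166), both under the 2-fold limit used for calls. Both drugs act on the proteins, so these levels do not check the treatment.

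In the edgeR fit, co-treatment raised and lowered genes in similar numbers outside the RRGs, a balance that some other settings did not keep. With edgeR's quasi-likelihood test, an adjusted p under 0.05 and a fold change over 2, 1597 genes were called, 6.19% of those tested, of which 949 (3.68%) were higher and 648 (2.51%) lower in co-treated embryos, whereas the median log2 fold change of all genes was -0.11. The 879 RRGs made up 266 of the higher and 2 of the lower genes; since the study chose them for low levels in its SCNT control libraries, that direction is not independent evidence. Outside the list 683 genes rose and 646 fell. The raised genes had a median log2 fold change of 1.26 and a median level of 96.6 CPM in co-treated embryos, and 48 of them were raised more than 8-fold. The lowered genes had a median of -1.76 and a median level of 13.7 CPM in the control, and 143 were lowered more than 8-fold. These levels are not divided by transcript length, so they describe read numbers and not molecules.

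**Figure D1:**
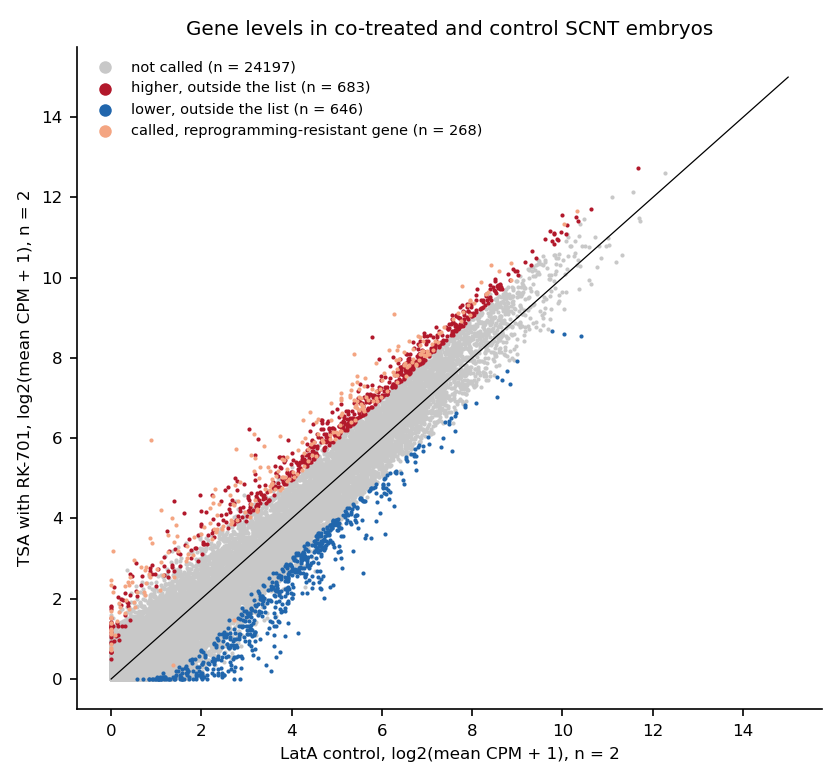
Mean normalized read counts of 25794 genes in LatA control (x axis) and co-treated embryos (y axis), both as log2(CPM + 1), 2 libraries each. Each point is a gene, and the diagonal marks equal levels. The 683 raised genes outside the RRG list lie mostly at high levels and the 646 lowered genes at low levels.

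The calls depended on single libraries. Of the 683 raised genes, 182 were also called without each of the 4 libraries in turn, and of the 646 lowered genes 59. Outside the list, 1264 genes were higher without control replicate 1, 387 without control replicate 2 and 412 without co-treated replicate 2, while 326 were lower without co-treated replicate 1 and 145 without co-treated replicate 2. DESeq2 called 592 of the 683 raised and 643 of the 646 lowered genes. It put the split at 943 higher and 1101 lower over all genes, so that 46.1% of its calls were higher against 59.4% in the edgeR fit. Outside the list DESeq2 put 662 genes higher and 1097 lower. There edgeR with RLE instead of TMM scaling put 560 higher and 743 lower.

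Genes that make ribosomes were raised more often than genes in general. Abundant genes were also called higher more often than others. Among protein-coding genes outside the RRG list, 290 of the 3031 with the highest levels were raised and 33 lowered, counting those with a promoter window. Whether the lists described here and below exceed genes of like level was not tested. Ribosome biogenesis factors cut, modify and fold ribosomal RNA in the nucleolus, and 29 of 108 tested rose, 8 of them RRGs, while 0 were lower (edgeR; 1 at an unadjusted p under 0.05, 0 by DESeq2). Their median log2 fold change was 0.68. The summed level of the list was 18456 and 14833 CPM in the control and 29597 and 29743 CPM in co-treated embryos. *Riok2*, a kinase needed to finish the small subunit, was at 158 and 83.2 CPM in the control and 374 and 378 CPM with co-treatment, a log2 fold change of 1.64 ± 0.25 (adjusted p = 0.000189). *Mphosph10*, a part of the small-subunit processome, was at 142 and 104 CPM in the control and 269 and 287 CPM with co-treatment (1.17 ± 0.18, adjusted p = 0.000165). For both genes the co-treated libraries lay above both control libraries. *Pwp1* rose by 1.69 ± 0.26 and *Utp11* by 1.25 ± 0.20 on the log2 scale, and both are RRGs. The list still held 18 raised genes without control replicate 2 and 46 without control replicate 1. For this and the lists below, the shares over all genes tested are 3.68% raised and 2.51% lowered. Both these shares and the list counts include RRGs, whose rise is not independent evidence. Outside the RRG list the shares are 2.74% and 2.59%.

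A group of raised ribosome biogenesis genes is shown by sequence because the promoters of raised genes shared letters more often than others did. The windows come from RefSeq, on GRCm38.p6 (mm10), and run over the 150 bases before the annotated start, written 5′ to 3′ on the gene's strand. Capitals mark the letters CCGGAAG or their reverse complement CTTCCGG, the core bound by ETS family factors. They are the 4 raised members outside the RRG list of lowest p, on chromosomes other than 18, that hold these letters there.
*Mphosph10* (chr7:64392237-64392386, minus strand): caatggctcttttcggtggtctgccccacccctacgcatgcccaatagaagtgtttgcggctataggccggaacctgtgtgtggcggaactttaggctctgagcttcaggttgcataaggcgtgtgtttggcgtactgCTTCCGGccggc
*Nip7* (chr8:107056727-107056876, plus strand): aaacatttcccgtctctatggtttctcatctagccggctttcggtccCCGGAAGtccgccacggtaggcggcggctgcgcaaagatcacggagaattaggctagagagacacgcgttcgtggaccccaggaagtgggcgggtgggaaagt
*Utp4* (chr8:106893490-106893639, plus strand): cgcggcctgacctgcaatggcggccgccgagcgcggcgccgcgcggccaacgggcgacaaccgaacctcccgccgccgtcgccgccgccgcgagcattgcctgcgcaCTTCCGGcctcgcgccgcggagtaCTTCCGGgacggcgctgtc
*Rpf2* (chr10:40247040-40247189, minus strand): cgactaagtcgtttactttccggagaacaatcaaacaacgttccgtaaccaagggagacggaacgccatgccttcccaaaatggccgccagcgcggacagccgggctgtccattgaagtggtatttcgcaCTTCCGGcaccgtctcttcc

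The letters CCGGAAG, on either strand of a window from 250 bases before to 50 after the start, were in 131 of 445 promoters of raised protein-coding genes outside the RRG list (29.4%), in 49 of 422 of lowered genes (11.6%) and in 1841 of all 12121 tested genes with a promoter in the table (15.2%). Among ribosome biogenesis genes outside the list they were in 37 of 86 tested and 10 of 19 raised. Promoters of abundantly expressed genes hold these letters more often in general: among the 3031 tested genes with the highest levels over all groups, 23.1% of promoters had them, against 92 of 290 raised genes (31.7%) and 3 of 33 lowered genes (9.09%). The E-box letters CACGTG differed less, at 11.9% of raised, 12.6% of lowered and 9.16% of all promoters. The letters TATAAA were in 8.09%, 7.82% and 8.94%, respectively, the E2F letters TCCCGC in 32.8%, 31.8% and 32.0%, GGATTA in 6.74%, 3.32% and 5.96%, and TGACGTCA in 4.94%, 1.66% and 2.88%. The CArG box, to which serum response factor binds, was in 1.12%, 1.66% and 1.30%. The median observed-over-expected CpG ratio was 0.802 in promoters of raised genes, 0.690 in those of lowered genes and 0.706 in all. A match of letters is a description and not a bound site.

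Few genes for the proteins of the ribosome itself passed the 2-fold limit, but most were higher. Of 74 ribosomal protein genes tested, 6 passed the fold limit and 0 were lower (edgeR; 0 at an unadjusted p under 0.05 and by DESeq2), whereas 58 were higher at an unadjusted p under 0.05, and the median log2 fold change was 0.67. *Rps6*, of the small subunit, was at 192 and 128 CPM in the control and 367 and 390.4 CPM with co-treatment (1.24 ± 0.21, adjusted p = 0.000483). *Rpl9*, of the large subunit, was at 158 and 152 CPM in the control and 299 and 355 CPM with co-treatment (1.08 ± 0.17, adjusted p = 0.000327). Neither gene's groups overlapped. Their summed level was 13395 and 13648 CPM in the control, 20502 and 22579 CPM with co-treatment and on average 12583 CPM in fertilized embryos. Ribosomal protein genes have many processed pseudogenes of near-identical sequence. Only uniquely aligned reads were kept, so their counts are uncertain and may be too low. The genes of mitochondrial ribosomal large-subunit proteins, whose symbols begin with *Mrpl*, held the highest share of raised genes of all 26 symbol stems with at least 40 tested protein-coding genes outside the RRG list, at 14 of 48 (29.2%), with a median of 0.72.

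Translation initiation factors and aminoacyl-tRNA synthetases were also raised more often than genes in general. Of 45 initiation factors 10 rose, 3 of them RRGs, and 1 fell, with a median of 0.61. *Eif2s2*, a subunit of the factor that carries the initiator tRNA, was at 869 and 689.8 CPM in the control and 1745 and 2243 CPM with co-treatment (1.36 ± 0.20, adjusted p = 0.000106). *Eif4e*, which binds the cap of messages, was at 1479 and 731 CPM in the control and 2605 and 2501 CPM with co-treatment (1.21 ± 0.27, adjusted p = 0.00513). The scaffold *Eif4g1*, to which eIF4E binds, moved the other way, from 127 and 229 CPM in the control to 94.3 and 75.7 CPM with co-treatment (-1.06 ± 0.23, adjusted p = 0.0032). Of 24 synthetases and their partner proteins 4 rose, 1 of them an RRG. They included *Rars*, which charges tRNA with arginine (1.36 ± 0.28, adjusted p = 0.00219). *Eif4g1* was not called without control replicate 2 or co-treated replicate 2. Without control replicate 2 these lists held 5 and 1 raised genes, and 15 and 7 without control replicate 1. When either co-treated library was left out, 2 synthetase list genes rose.

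Genes for transcription, splicing and export were raised at shares above the 3.68% of all genes, a share that is itself higher among abundant genes. Of 92 subunits of RNA polymerase II, its general factors and Mediator, 18 rose, 5 of them RRGs, with a median of 0.47. In this list 0 fell (edgeR, with 5 lower at an unadjusted p under 0.05, and 0 by DESeq2). *Taf7*, a subunit of TFIID, was at 336 and 297 CPM in the control and 769 and 783 CPM with co-treatment (1.29 ± 0.19, adjusted p = 0.000106). The TATA-binding protein gene *Tbp*, an RRG, rose by 1.38 ± 0.22, and the Mediator subunits *Med31* and *Med6* by 1.28 ± 0.20 and 1.32 ± 0.21. Of 87 spliceosome genes 16 rose, 1 of them an RRG, with a median of 0.50, and 0 fell (edgeR, with 2 lower at an unadjusted p under 0.05, and 0 by DESeq2). *Snrpa1*, the U2 A′ protein, was at 122 and 119 CPM in the control and 365.7 and 419 CPM with co-treatment (1.70 ± 0.21, adjusted p = 3.64e-05). Both co-treated libraries lay above both control libraries, and *Snrpa1* was called without each library in turn. *Sf3b6* (1.30 ± 0.20) and *Magoh* (1.06 ± 0.17), of the U2 particle and the exon junction complex, were also called without each library in turn. Of 61 nuclear transport genes 9 rose, 4 of them RRGs, including *Ran* (1.12 ± 0.20, adjusted p = 0.000877), the GTPase that gives transport its direction, and *Nxf1* (1.22 ± 0.20), the mRNA exporter. *Kpna2*, an importin alpha, was at 1602 and 421 CPM in the control and 3165 and 2853 CPM with co-treatment (1.57 ± 0.45, adjusted p = 0.0238), with a wide gap between its control libraries. Without control replicate 2 the numbers raised were 9 transcription, 5 splicing and 2 transport genes, beside 28, 21 and 15 without control replicate 1 and 14, 10 and 6 without co-treated replicate 2. The transport list also held 6 without co-treated replicate 1.

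RNA decay factors were mixed, and 2 of the raised ones are RRGs. *Ythdf2*, which binds N6-methyladenosine in messages and recruits their deadenylation, had the lowest p value of the list: 259 and 286 CPM in the control and 653 and 852 CPM with co-treatment (1.47 ± 0.17, adjusted p = 1.93e-05). The deadenylase subunit *Cnot8* rose by 1.16 ± 0.25 (adjusted p = 0.00294). The decapping enzyme *Dcp2* fell from 185 and 356 CPM in the control to 133 and 101.4 CPM with co-treatment (-1.20 ± 0.26, adjusted p = 0.00328). In all 5 of 53 rose (9.43%) and 1 fell (1.89%), beside 3.68% and 2.51% of all genes tested. The list held 2 raised genes without control replicate 2, 8 without control replicate 1 and 3 without co-treated replicate 2.

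**Figure D2:**
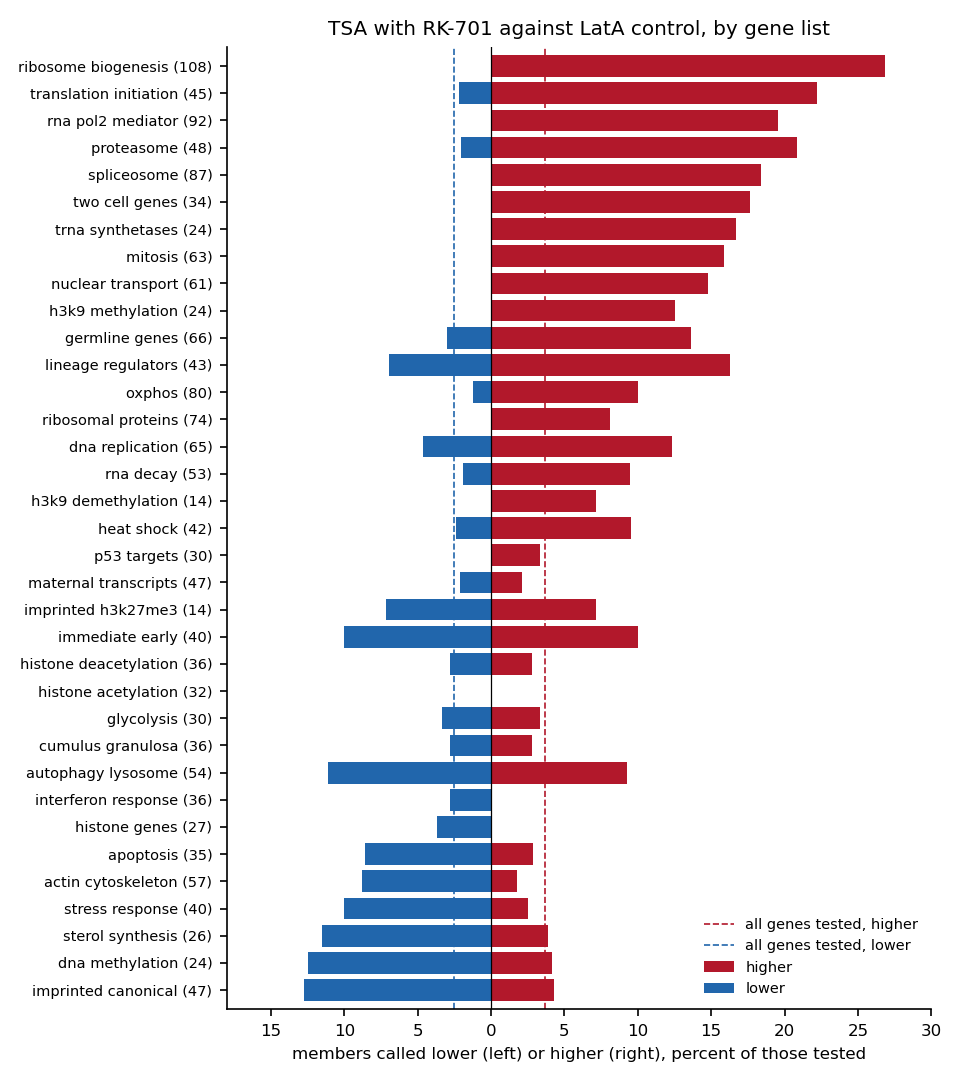
Share of each gene list's tested members called higher (right, red) or lower (left, blue) with co-treatment, in percent; the number tested is in parentheses and the dashed lines mark the shares over all genes, 3.68% and 2.51%. Ribosome biogenesis, translation, transcription, proteasome and splicing lists stand at the top, and imprinted, sterol, stress and actin lists at the bottom. RRGs are included in the lists and in the shares over all genes.

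Raised genes of protein turnover and folding included subunits of the 26S proteasome and of the chaperonin that folds actin and tubulin. Of 48 proteasome genes 10 rose and 1 fell, with a median of 0.66. *Psmd7*, of the lid, was at 337 and 202 CPM in the control and 689 and 697 CPM with co-treatment (1.36 ± 0.25, adjusted p = 0.000766). The gene that fell, *Psmb8*, encodes a catalytic subunit of the immunoproteasome and was at 4.99 and 2.6997 CPM in the control and at 0.0773 and 0.0698 CPM, or 1 read per library, with co-treatment, at least 16.6-fold lower. Of 42 heat shock and chaperone genes 4 rose, namely the chaperonin subunits *Cct4* (1.94 ± 0.30, an RRG), *Tcp1* (1.24 ± 0.29) and *Cct3* (1.02 ± 0.24) and the J-domain co-chaperone *Dnajb6* (1.05 ± 0.26), and the mitochondrial co-chaperonin *Hspe1* fell (-1.08 ± 0.27). *Psmb8* was not called when either co-treated library was left out, and *Hspe1* not without control replicate 1 or co-treated replicate 1. Only 1 proteasome and 1 heat shock gene rose without control replicate 2, against 20 and 13 without control replicate 1, and 6 proteasome genes rose without co-treated replicate 2.

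Mitochondrial and metabolic genes moved in both directions. Of 80 oxidative phosphorylation genes 8 rose, 1 of them an RRG, and 1 fell, with a median of 0.47. *Ndufs1*, of complex I, was at 23.3 and 19.08 CPM in the control and 51.2 and 46.9 CPM with co-treatment (1.21 ± 0.25, adjusted p = 0.00224), whereas *Ndufs6* of the same complex fell from 29.1 and 21.6 CPM in the control to 7.81 and 9.91 CPM with co-treatment (-1.52 ± 0.32, adjusted p = 0.00292). *Sdhd*, of complex II, rose by 1.40 ± 0.30. The list held 3 raised genes without control replicate 2 and 3 without co-treated replicate 2. Glycolysis genes had a median of -0.62, and of 30 tested *Pgam1* rose (1.12 ± 0.33) and *Ldha* fell (-1.21 ± 0.38), although its groups overlapped; DESeq2 called 8 of them lower, 3 were lower when either control library was left out, and 0 were called in either direction when either co-treated library was left out (edgeR). The glycolysis calls are 3.33% raised and 3.33% lowered, beside 3.68% and 2.51% of all genes tested. Of 26 genes of sterol synthesis and uptake, *Fdft1* rose (1.25 ± 0.26, an RRG), and 3 fell, among them *Dhcr7* (-1.29 ± 0.23) and *Stard4* (-1.66 ± 0.46). The sterol calls are 3.85% raised and 11.5% lowered, beside the same shares over all genes. Only 1 sterol gene was lower without control replicate 2, co-treated replicate 1 or co-treated replicate 2.

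Of 63 mitosis genes 10 rose and 0 fell (edgeR; 5 lower at an unadjusted p under 0.05, 0 by DESeq2), with a median of 0.56. *Ckap2*, a spindle microtubule protein, was at 69.7 and 53.6 CPM in the control and 197 and 175 CPM with co-treatment (1.59 ± 0.27, adjusted p = 0.000414). *Sgo1*, which protects centromeric cohesion, was at 235 and 119.9 CPM in the control and 531 and 392 CPM with co-treatment (1.38 ± 0.26, adjusted p = 0.00114). *Ccnb1*, the cyclin that drives entry into mitosis, was at 1923 and 581.6 CPM in the control and 2865 and 2983 CPM with co-treatment (1.22 ± 0.34, adjusted p = 0.0213), with a wide gap between its control libraries. *Cks2*, a partner of the cyclin-dependent kinases, rose by 1.19 ± 0.21 (adjusted p = 0.000597). Of 65 DNA replication genes 8 rose, 1 of them an RRG, and 3 fell. The raised genes included *Gins3*, of the replicative helicase complex (66.8 and 52.4 CPM in the control and 156 and 127 CPM with co-treatment, 1.24 ± 0.27), and *Tipin*, which steadies paused forks (1.23 ± 0.22). The lowered genes were *Pold1* (-2.30 ± 0.68), *Lig1* (-1.10 ± 0.30) and *E2f2* (-1.33 ± 0.39), namely the catalytic subunit of polymerase delta, a ligase and a cell cycle transcription factor. Mitosis and replication lists held 2 and 1 raised genes without control replicate 2, 24 and 18 without control replicate 1, 8 and 5 without co-treated replicate 1, and the replication list held 0 lowered genes without co-treated replicate 2 and 1 without co-treated replicate 1.

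Of 34 two-cell stage genes 6 rose, and all 6 are RRGs. *Zscan4d* was at 10.9 and 5.12 CPM in the control, 22.8 and 47.9 CPM with co-treatment and on average 178 CPM in fertilized embryos. *Obox6* was at 577 and 347 CPM in the control and 1356 and 1266 CPM with co-treatment (1.504 ± 0.25). *Zscan4* and *Obox* genes have near-identical copies, and only uniquely aligned reads were kept, so their counts are uncertain and may be too low. Among 43 lineage regulators 7 rose and 3 fell. *Sall4*, a zinc finger protein of the inner cell mass, was at 179.9 and 74.2 CPM in the control and 291 and 456 CPM with co-treatment (1.55 ± 0.30, adjusted p = 0.00122). *Dppa4* (1.14 ± 0.23) and *Dppa5a* (1.21 ± 0.23), expressed in pluripotent cells, rose, as did the RRG *Klf5* (1.16 ± 0.23), a regulator of trophectoderm and inner cell mass. *Arid3a* (-1.20 ± 0.29) and *Id2* fell, and *Bhlhe40*, a repressor linked to the circadian clock, fell from 37.6 and 13.0 CPM in the control to 2.94 and 3.21 CPM with co-treatment (-3.04 ± 0.58, adjusted p = 0.00114). Lowered lineage regulators numbered 1 when either co-treated library was left out. Two-cell genes called higher numbered 3 without control replicate 2 and 12 without control replicate 1.

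Of 47 maternal transcripts, which are stored in the oocyte, *Dppa3* rose and *Sebox* fell (-1.16 ± 0.31), with a median of -0.10. These are 2.13% each, beside 3.68% raised and 2.51% lowered of all genes tested. *Dppa3*, a maternal protein that protects the maternal genome from demethylation, had the largest rise in mean normalized read count of the genes called outside the list, a measure that also grows with transcript length, from 4170 and 2394 CPM in the control to 6220 and 7390 CPM with co-treatment (1.05 ± 0.20, adjusted p = 0.00127). It was not called without control replicate 2 or co-treated replicate 2, nor by DESeq2, and was not called under 7 of 13 alternatives, with a lowest log2 fold change of 0.35 against the cytochalasin B control. *Kpna2* came next, then *H3f3b*, which encodes the replacement histone H3.3, with 2097 and 1066 CPM in the control and 3281 and 3404 CPM with co-treatment (1.08 ± 0.23, adjusted p = 0.00269). *Map1lc3b*, the LC3B protein of autophagosomes, was at 1601 and 1013 CPM in the control and 2619 and 2814 CPM with co-treatment (1.06 ± 0.21, adjusted p = 0.00161). *Trim43b* rose too (1.45 ± 0.36), and close paralogues make its count uncertain.

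Germline genes rose mainly within the RRGs, which made up 8 of the 9 raised of 66 tested. *Cstf2t*, an RNA cleavage factor used in spermatogenesis, was at 296 and 140.1 CPM in the control and 759 and 999 CPM with co-treatment (2.01 ± 0.26, adjusted p = 5.1e-05). *Terb2*, which tethers meiotic telomeres, rose by 1.49 ± 0.25. *Dazl*, a germ cell RNA-binding protein, fell from 203 and 196 CPM in the control to 104 and 91.0 CPM with co-treatment (-1.04 ± 0.23, adjusted p = 0.00472), and *Tuba3a* was the other member lowered. Lowered germline genes numbered 1 when either control library was left out, 4 without co-treated replicate 1 and 0 without co-treated replicate 2 (edgeR).

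Chromatin genes moved singly. Of 24 genes of histone H3 lysine 9 methylation 3 rose. *Atf7ip2*, a partner of the methyltransferase SETDB1 and an RRG, was at 73.8 and 84.6 CPM in the control and 300.05 and 286 CPM with co-treatment (1.89 ± 0.23, adjusted p = 3.64e-05). *Pphln1*, of the HUSH silencing complex, rose by 1.13 ± 0.23 and *Smarcad1*, a remodeller, by 1.04 ± 0.19. *Riox2* was the raised gene of 14 demethylation genes (1.48 ± 0.28). Of 36 genes of histone deacetylation *Sirt6* rose (1.15 ± 0.30) and *Mbd2* fell (-1.88 ± 0.35). These are 2.78% each, beside 3.68% raised and 2.51% lowered of all genes tested. Of 32 acetyltransferase genes 0 were called (edgeR, with 4 higher and 5 lower at an unadjusted p under 0.05, and 1 lower by DESeq2). *Mbd2* binds methylated DNA and was joined among the lowered genes of DNA methylation by *Dnmt3b* (-1.28 ± 0.38) and *Gadd45g*. *Gadd45g* was at 65.4 and 40.7 CPM in the control, 12.4 and 8.58 CPM with co-treatment (-2.34 ± 0.42, adjusted p = 0.000688) and on average 3.95 CPM in fertilized embryos. Without control replicate 2, 1 lysine 9 methylation gene was called higher; without control replicate 1, 6 deacetylation genes were called lower.

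Immediate early and growth factor response genes made up part of the lowered side, with a median of -0.68 over 40 tested, 4 lower and 4 higher. These are 10% each, beside 2.51% lowered and 3.68% raised of all genes tested. *Klf6*, a zinc finger factor induced by stress, was at 21.9 and 5.12 CPM in the control and 1.62 and 0.558 CPM with co-treatment (-3.65 ± 0.66, adjusted p = 0.000837). *Klf10* fell from 75.3 and 23.5 CPM in the control to 7.03 and 15.1 CPM with co-treatment (-2.16 ± 0.47). *Mycl* (-2.46 ± 0.73) and *Id2* (-1.55 ± 0.50) fell, *Id2* with overlapping groups and a log2 fold change of 0.06 without control replicate 1, while *Myc* rose from 14.5 and 19.7 CPM in the control to 40.8 and 33.4 CPM with co-treatment (1.12 ± 0.33, adjusted p = 0.0277). The raised members were *Myc*, the phosphatase *Dusp10* (1.23 ± 0.27) and the RRGs *Btg1* (1.21 ± 0.22) and *Spry2* (1.19 ± 0.30), of which *Btg1*, *Dusp10* and *Spry2* are known to restrain growth signalling. Raised members numbered 1 without control replicate 1 or co-treated replicate 2, and lowered members 1 and 2 without co-treated replicates 1 and 2.

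Actin genes were more often lowered than raised, at 5 (8.77%) and 1 (1.75%) of 57, beside 2.51% and 3.68% of all genes tested. *Ezr*, which links actin to the membrane, was at 30.6 and 17.0 CPM in the control and 2.47 and 5.16 CPM with co-treatment (-2.64 ± 0.44, adjusted p = 0.000434). *Actn1*, a crosslinker, was at 10.3 and 16.8 CPM in the control and 2.01 and 2.79 CPM with co-treatment (-2.48 ± 0.43, adjusted p = 0.000526). *Capzb* (-1.49 ± 0.32) and *Tpm4* (-2.32 ± 0.53) fell as well, and *Cnn3* rose (1.07 ± 0.20). All libraries compared had received LatA. Lowered members numbered 3 without co-treated replicate 2, and 9 by DESeq2; raised members numbered 6 without control replicate 1.

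Stress and cell death genes called lower were *Ddit3*, *Herpud1*, *Hyou1* and *Shmt2* of 40 stress genes and *Ripk1*, *Ripk3* and *Bcl2* of 35 cell death genes. *Ddit3*, the CHOP factor of the unfolded protein response, was at 28.5 and 12.2 CPM in the control and 6.11 and 6.21 CPM with co-treatment (-1.73 ± 0.36, adjusted p = 0.00249). *Ripk3*, the kinase of necroptosis, was at 68.2 and 54.4 CPM in the control and 20.7 and 12.6 CPM with co-treatment (-1.88 ± 0.46, adjusted p = 0.00877), and at 1.01 CPM on average in fertilized embryos. Of 36 interferon response genes 1 fell (2.78%, beside 2.51% of all genes tested). That gene, *Ddx58*, which encodes the RNA sensor RIG-I, was at 90.0 and 44.2 CPM in the control and 26.0 and 20.6 CPM with co-treatment (-1.53 ± 0.34, adjusted p = 0.00383). *Psat1*, a serine synthesis enzyme, rose (1.27 ± 0.24), and so did the RRG *Pmaip1*, which encodes the death protein NOXA (3.26 ± 0.82). *Pmaip1* was the raised gene of 30 p53 targets, 3.33% beside 3.68% of all genes tested. Of 27 histone genes tested, out of 66 listed, *Hist1h1a* fell (-2.39 ± 0.49), 3.70% beside 2.51% of all genes tested. The median of the list was -1.40, but only 2 genes were lower at an unadjusted p under 0.05 and 2 were higher. Their summed level was low, at 37.6 and 54.5 CPM in the control and 35.5 and 36.3 CPM with co-treatment. The libraries were made from polyadenylated RNA. Lowered stress genes numbered 1 without control replicate 1 or co-treated replicate 2 and 2 without co-treated replicate 1, and lowered cell death genes 1 without control replicate 1 or co-treated replicate 2; *Ddx58* was not called without control replicate 1 or co-treated replicate 2.

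Autophagy and lysosome genes went both ways, 5 up and 6 down of 54. *Gabarapl2*, an LC3-related protein, rose (1.32 ± 0.23), as did the protease *Ctsc* (1.10 ± 0.30). The cargo receptor *Sqstm1* fell from 23.1 and 25.2 CPM in the control to 7.19 and 7.53 CPM with co-treatment (-1.71 ± 0.33, adjusted p = 0.00123), and the lysosomal hydrolases *Hexa* (-2.24 ± 0.50) and *Ctsd* (-1.14 ± 0.24) fell. Higher members numbered 0 without control replicate 2 (edgeR), 8 without control replicate 1, 3 without co-treated replicate 1 and 2 without co-treated replicate 2. Of the lowered, 3 were called without co-treated replicate 2 and 4 without co-treated replicate 1.

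Of 47 canonical imprinted genes 6 fell (12.8%) and 2 rose (4.26%), beside 2.51% and 3.68% of all genes tested. The noncoding RNAs *Meg3* and *Rian*, neighbours in the *Dlk1*-*Dio3* domain, both fell. *Meg3* was at 10.4 and 12.1 CPM in the control and 0.618 and 1.67 CPM with co-treatment (-3.27 ± 0.55, adjusted p = 0.000429). *Rian* was at 7.71 and 3.44 CPM in the control and at 3 reads or fewer with co-treatment, at least 24.1-fold lower. *Plagl1* fell (-1.61 ± 0.43), and *Ube3a* (1.31 ± 0.18, adjusted p = 6.97e-05) and *Usp29* (1.41 ± 0.25) rose. *Sfmbt2*, whose imprint rests on histone methylation and is known to be lost in cloned embryos, was at 60.3 and 33.0 CPM in the control, 5.02 and 5.37 CPM with co-treatment (-3.16 ± 0.50, adjusted p = 0.000253) and on average 4.47 CPM in fertilized embryos. The co-treated level of *Sfmbt2* was thus near the fertilized one and below both control libraries. *Etv6*, an ETS factor in the same list of 14 genes, rose (1.504 ± 0.24). Counting without alleles cannot tell a change of imprint from a change of level. Canonical genes lowered and raised numbered 5 and 3 without control replicate 1, 4 and 3 without control replicate 2 or co-treated replicate 1, 2 and 2 without co-treated replicate 2, and 3 and 2 against cytochalasin B control libraries.

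**Figure D3:**
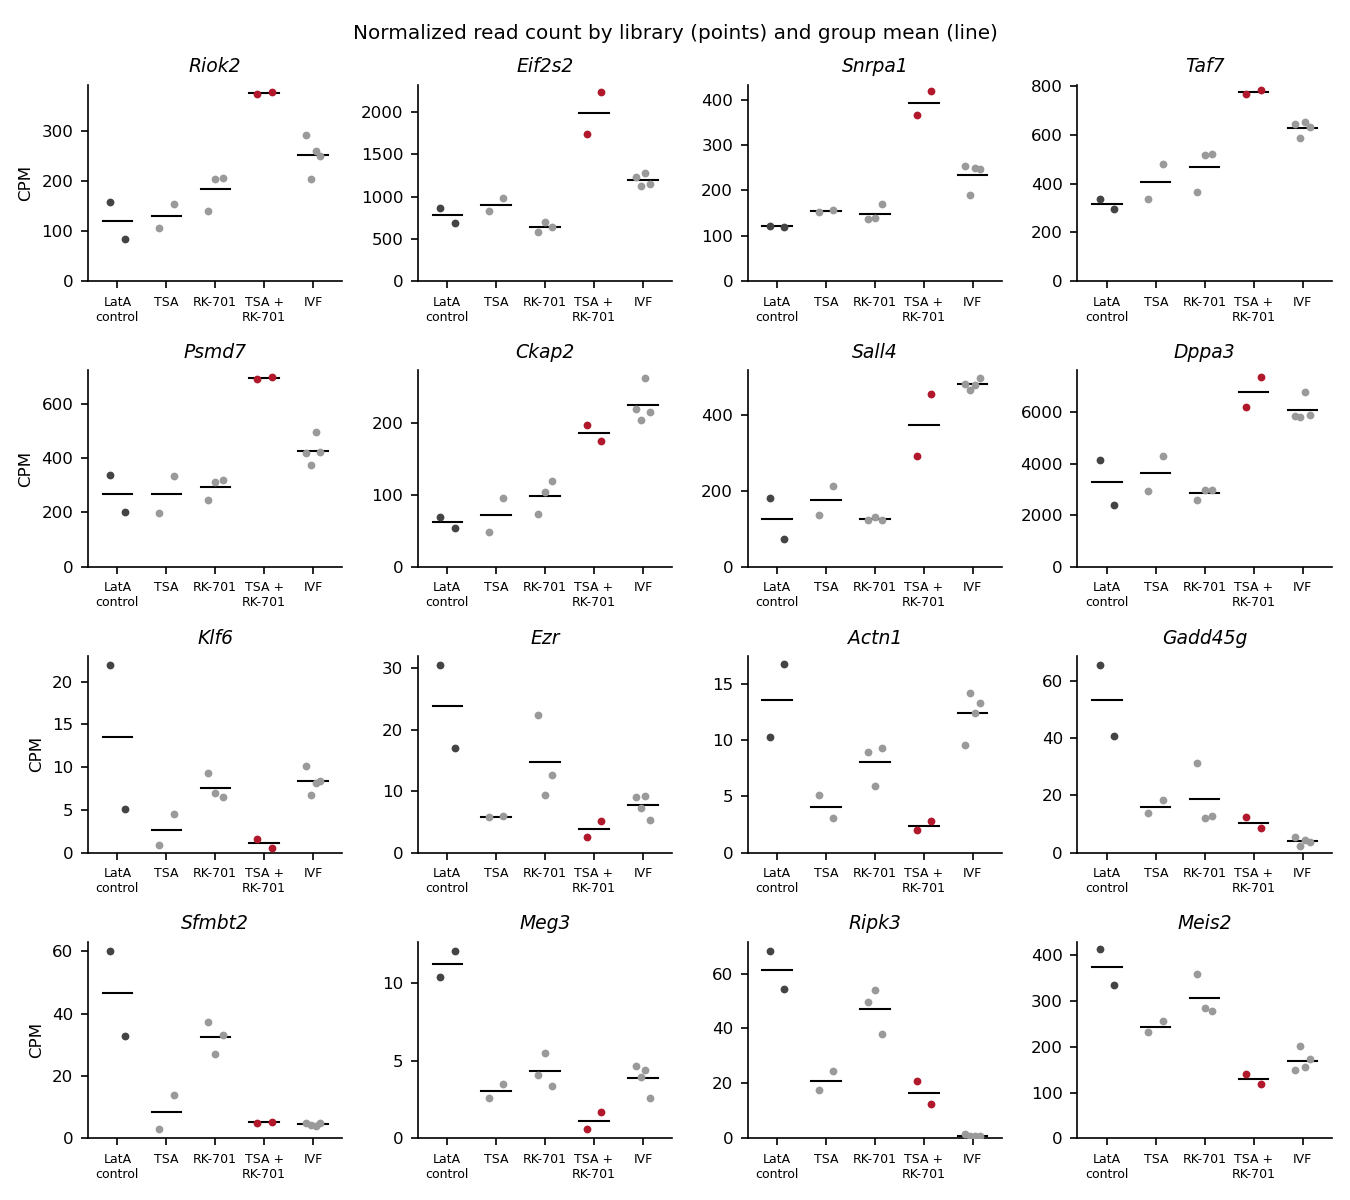
Normalized read count (CPM, linear axis from 0) of 16 genes in each library of the LatA control, TSA, RK-701, co-treated and fertilized (IVF) groups; points are libraries and lines group means. The co-treated points lie above the control points for the genes of the upper rows and below them for those of the lower rows.

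Of the cumulus and granulosa genes, *Gja1* rose and *Fst* fell, each 2.78% of those tested, beside 3.68% raised and 2.51% lowered of all genes. *Gja1*, which encodes the gap junction protein connexin 43, was at 112 and 90.7 CPM in the control and 244 and 429.6 CPM with co-treatment (1.73 ± 0.24, adjusted p = 7.94e-05). *Fst* was at 11.2 and 0 CPM in control replicates 1 and 2 and at 0 in both co-treated libraries, so that the call rested on control replicate 1 alone and its log2 fold change was 0 without it.

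The largest fold changes outside the RRGs belonged to genes near the limit of detection. *Chrna5*, a nicotinic receptor subunit, was at 0 reads in both control libraries and at 1.24 and 1.67 CPM with co-treatment, at least 5.21-fold higher. *Syt17* was at 0.217 and 0.0931 CPM in the control and 3.09 and 2.93 CPM with co-treatment (4.12 ± 0.92, adjusted p = 0.00502). On the lowered side *Muc1*, a membrane mucin, was at 9.07 and 3.44 CPM in the control and at 0 with co-treatment, at least 26.98-fold lower, and *Gal*, the neuropeptide galanin, at least 13.6-fold lower. In 29 of the raised and 86 of the lowered genes outside the list the lower group held 3 reads or fewer in each library. More abundant lowered messages were *Meis2*, a homeobox factor (414 and 334 CPM in the control and 141 and 118 CPM with co-treatment, -1.53 ± 0.21, adjusted p = 7.51e-05), *Arid5b* (157 and 217 CPM in the control and 54.6 and 46.0 CPM with co-treatment, -1.90 ± 0.24, adjusted p = 3.82e-05) and *Gdap1* (635 and 1116 CPM in the control and 437 and 374 CPM with co-treatment, -1.11 ± 0.24, adjusted p = 0.00289). *Meis2* and *Arid5b* were called without each library in turn.

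Neighbouring genes moved together in 2 places. On chromosome 15, *Myc* and the gasdermin C genes *Gsdmc*, *Gsdmc2*, *Gsdmc3* and *Gsdmc4* (chr15:61985391-63912297, mm10) all rose, by 1.12 to 3.92 on the log2 scale. *Gsdmc2* was at 3.37 and 5.399 CPM in the control, 21.2 and 20.3 CPM with co-treatment (2.26 ± 0.45, adjusted p = 0.00171) and 67.6 CPM on average in fertilized embryos. The gasdermin C copies are near-identical, and only uniquely aligned reads were kept, so their counts are uncertain and may be too low. On chromosome 6, *Vamp1*, *Tapbpl*, *Cd27* and *Tuba3a* (chr6:125215551-125286042) fell, *Vamp1* from 20.9 and 15.1 CPM in the control to 3.71 and 6.84 CPM with co-treatment (-1.77 ± 0.49). A run needs each member called, and most members depended on the processing. Of 13 alternatives, *Tuba3a* was not called under 7, *Cd27* under 6, *Vamp1* under 5 and *Tapbpl* under 1. *Gsdmc4* was not called under 6, *Gsdmc* and *Myc* under 4 each and *Gsdmc3* under 3, while *Gsdmc2* was called under all. Over chromosomes the share of raised genes outside the RRG list ranged from 1.88% on chromosome 10 to 4.00% on chromosome 12, and that of lowered genes from 1.62% on chromosome 9 to 4.33% on chromosome 18.

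Raised protein-coding genes had shorter transcripts than others. The median exonic length was 2649 bases in 593 raised genes, 3777 bases in 550 lowered genes and 3470 bases in all 15662 tested. Of 2585 processed pseudogenes 31 rose (1.20%) and 8 fell (0.309%), and of 2066 lincRNA genes 27 rose (1.31%) and 39 fell (1.89%), all below the 2.74% raised and 2.59% lowered of all genes outside the RRG list. Of the zinc finger genes with symbols beginning *Zfp*, 21 of 345 rose (6.09%) and 7 fell (2.03%). Of the solute carriers (*Slc*), 6 of 312 rose (1.92%) and 13 fell (4.17%). Among all protein-coding genes outside the RRG list, 3.79% rose and 3.51% fell.

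The genes called here were followed through the other groups. The median level of the 683 raised genes, as log2(CPM + 0.5), was 5.52 and 5.13 in the LatA control, 6.63 and 6.59 with co-treatment and between 5.70 and 5.94 in the 4 IVF libraries, so that the co-treated libraries stood above the fertilized ones. The median of the 646 lowered genes was 3.71 and 3.76 in the LatA control, 2.15 and 2.14 with co-treatment and 2.49 to 2.67 in IVF embryos. The genes were selected on the LatA control and co-treated libraries, which by itself sets those groups at the extremes. In embryos injected with *Kdm3a* or *Kdm4d* mRNA, which encode lysine 9 demethylases, the raised genes stood at 6.11 to 6.36 and the lowered genes at 2.64 to 2.72. Single genes did not all come nearer the fertilized level, as *Sfmbt2* and *Gadd45g* did. *Arid5b* averaged 187 CPM in the LatA control, 50.3 CPM with co-treatment and 180 CPM in IVF embryos. *Eif2s2* averaged 779, 1994 and 1197 CPM, respectively.

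**Figure D4:**
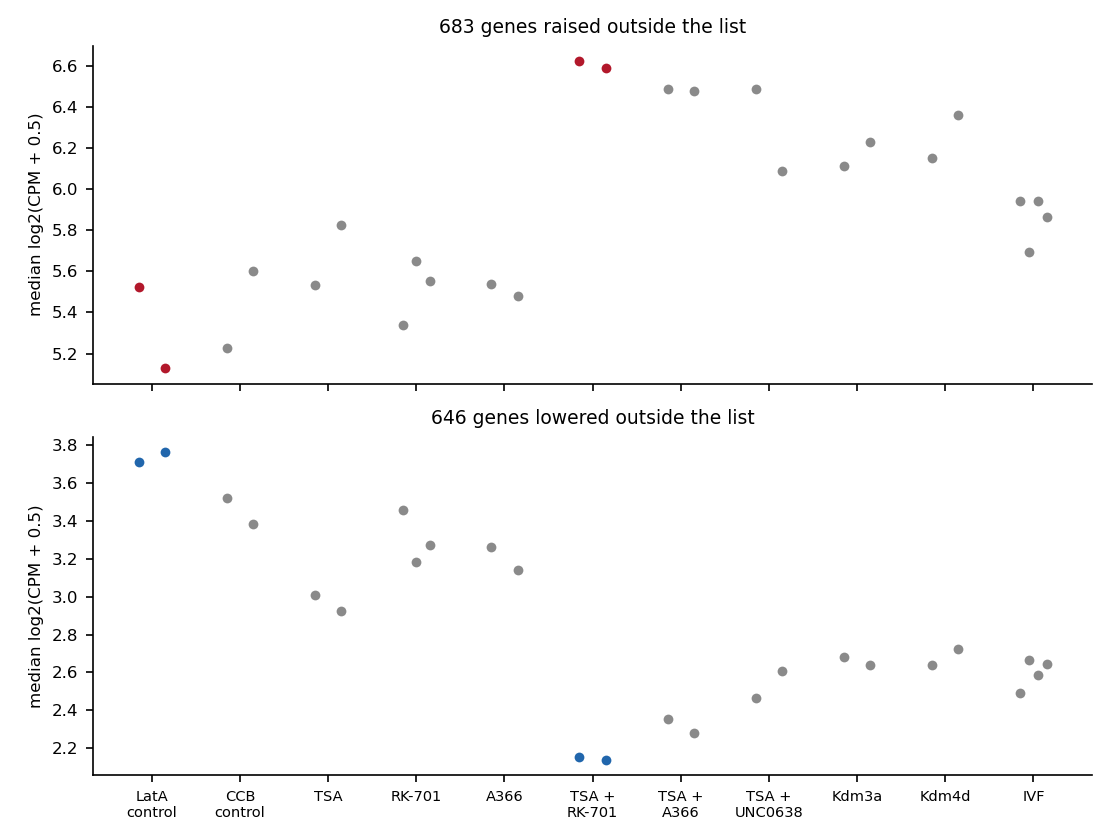
Median level, as log2(CPM + 0.5), of the 683 raised (top) and 646 lowered genes (bottom) outside the RRG list, by group; each point is 1 library, with the compared groups in colour. The 3 groups given TSA with a G9a inhibitor stand above the IVF libraries in the upper panel.

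The genes called with co-treatment were also followed with each drug alone, against the same control libraries. The raised genes had median log2 fold changes of 0.31 with TSA alone and 0.26 with RK-701 alone, beside 1.26 with both, and the lowered genes -0.85, -0.54 and -1.76. These comparisons share their control. The genes were selected for passing the 2-fold limit with both drugs, which by itself favours smaller medians with each drug alone. Some named genes were also called with a single drug. With RK-701 alone *Gsdmc2* rose by 2.47 and the RRG *Zscan4d* by 2.26, beside 2.26 and 2.11 with both. With TSA alone *Sfmbt2* fell by -2.44, beside -3.16 with both. Others were not, such as *Snrpa1*, at 0.35 with TSA, 0.30 with RK-701 and 1.70 with both. The interaction term tests whether the difference with both drugs departs from the sum of the single differences, and 553 genes were called (2.14% of those tested), 359 above the sum (1.39%) and 194 below it (0.752%). Outside the RRG list, 335 genes were above the sum and 116 of these were also raised by co-treatment. The number fell to 9 without co-treated replicate 2, to 99 without TSA replicate 1 and to 304 and 339 without RK-701 replicates 1 and 3, and it rose to 1035 without control replicate 2; DESeq2 called 1028.

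Above the sum were 22 of 74 ribosomal protein genes, 20 of 80 oxidative phosphorylation genes and 9 of 48 proteasome genes. Ribosomal protein genes had a median log2 fold change of 0.25 with TSA, -0.49 with RK-701 and 0.67 with both. *Rpl38* was at 72.6 and 99.2 CPM in the control, 121 and 84.9 CPM with TSA, 24.5, 30.3 and 34.2 CPM with RK-701 and 140 and 176 CPM with both (interaction log2 2.15 ± 0.29, adjusted p = 0.000661). *Tma7*, a small ribosome-associated protein, was at 136, 144 and 140 CPM with RK-701 and 401 and 430 CPM with both (interaction log2 1.79 ± 0.24, adjusted p = 0.000661), and *Atp5j*, of ATP synthase, also lay above the sum (interaction log2 1.78 ± 0.27, adjusted p = 0.00215). All 3 were lower in every RK-701 library than in both control libraries and higher in both co-treated libraries.

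The genes of lowest p below the sum were higher in every RK-701 library than in both control libraries. *Pla2g4c*, a phospholipase, was at 277 and 261 CPM in the control, 270 and 246 CPM with TSA, 987, 659 and 768 CPM with RK-701 and 166 and 170 CPM with both (interaction log2 -2.20 ± 0.33, adjusted p = 0.00215). *Oosp1*, an oocyte-secreted protein, was at 672, 511 and 589 CPM with RK-701 and 212 and 192 CPM with both (interaction log2 -2.13 ± 0.31, adjusted p = 0.00139), and both genes were lower in each co-treated library than in each RK-701 library. The polarity gene *Pard3* was at 167 and 156 CPM in the control, 534, 454 and 460 CPM with RK-701 and 204 and 144 CPM with both (interaction log2 -1.80 ± 0.24, adjusted p = 0.000661), so that its co-treated and control libraries overlapped. These 6 genes, chosen by lowest p, had an adjusted p under 0.05 when either co-treated library was left out. The median of the 47 maternal transcripts was 0.77 with RK-701, -0.13 with TSA and -0.10 with both, and 9 of them were below the sum.

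**Figure D5:**
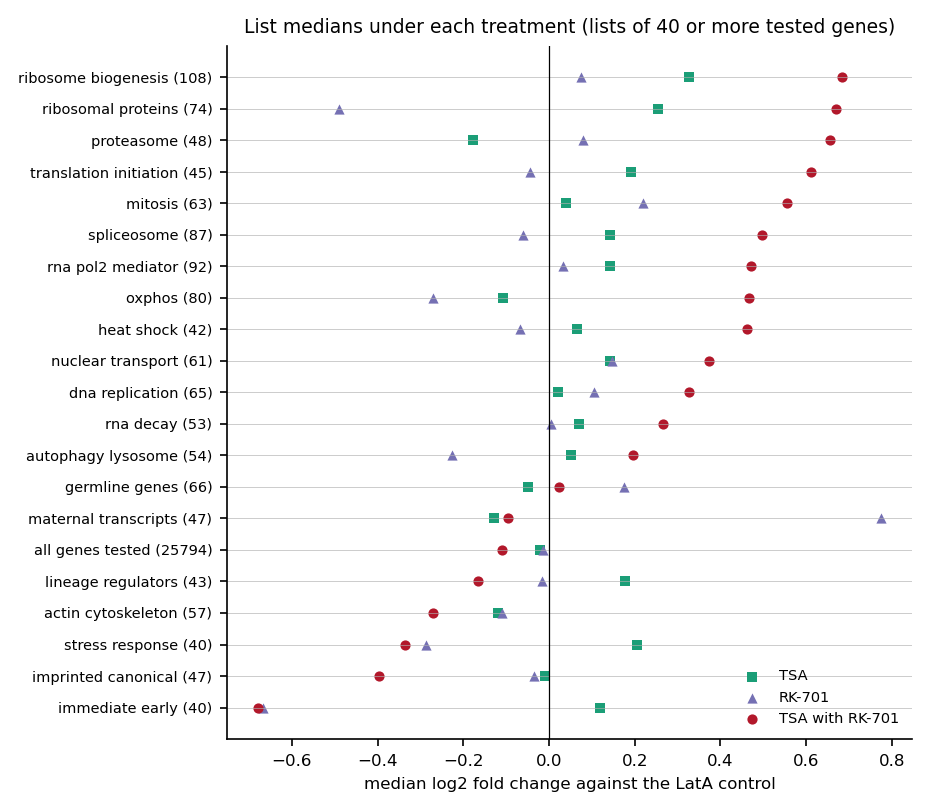
Median log2 fold change against the LatA control of each list with 40 or more tested genes, for TSA alone (squares), RK-701 alone (triangles) and both (circles); the comparisons share their control libraries. Ribosomal protein genes are at 0.25, -0.49 and 0.67, and maternal transcripts at -0.13, 0.77 and -0.10.

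Other G9a inhibitors gave a comparison without shared libraries. TSA with A366 or UNC0638, 2 libraries each, was compared with 2 SCNT libraries labelled as not treated, for which the study used cytochalasin B as the actin blocker, whereas the treated ones had received LatA, so that the blocker differs along with the drugs. There 1886 genes were called (7.31%), 832 higher (3.23%) and 1054 lower (4.09%). Outside the RRG list, 235 genes were higher in both comparisons, which is 34.4% of the 683 raised by TSA with RK-701 and 41.4% of the 568 raised there. A further 242 were lower in both, 37.5% of 646 and 23.1% of 1046, and 0 genes were called in opposite directions. The genes raised by TSA with RK-701 had a median log2 fold change of 0.90 there and those lowered -1.02, beside -0.12 for all genes outside the list. Across the 24915 genes, which are not independent, r was 0.29.

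Named genes shared by both comparisons came from both directions. *Riok2*, *Eif3g*, *Snrpa1*, *Ythdf2* and *Sall4* had log2 fold changes of 1.30, 1.03, 1.01, 1.12 and 1.46 with the other inhibitors. *Klf6*, *Ezr*, *Actn1*, *Gadd45g* and *Sfmbt2* had -1.92, -1.89, -1.10, -1.90 and -3.22. Other named genes were not called there. Among them *Pmaip1* had 0.09, *Dppa3* 0.39, *Dazl* -0.13, *Mbd2* -0.41, *Eif4g1* -0.39 and *Meg3* -0.99. All 5 genes of the *Myc* and gasdermin C run were called there and 0 of the 4 of the *Vamp1* run were. By list, 12 of 108 ribosome biogenesis, 9 of 87 spliceosome and 8 of 63 mitosis genes were higher and 9 of 57 actin genes lower. Over all genes tested 3.23% were higher there and 4.09% lower. Of 48 proteasome genes 1 was higher and 2 lower, and of 65 DNA replication genes 1 was higher and 2 lower. These proteasome and replication counts lie near or below the shares over all genes. Of 47 canonical imprinted genes 3 were higher and 2 lower, and of 36 interferon response genes 2 were higher and 3 lower. Of 36 cumulus and granulosa genes 1 was higher and 5 lower, with a median of -1.12. Of ribosomal protein genes 0 were called there (edgeR; 32 higher and 1 lower at an unadjusted p under 0.05, 0 by DESeq2), with a median of 0.32. For oxidative phosphorylation genes 0 were higher (edgeR; 21 at an unadjusted p under 0.05, 0 by DESeq2) and 2 lower, *Ndufs6* among them. The number of genes called there was 665 without cytochalasin B control replicate 1 and 1201 without UNC0638 replicate 1. The number shared in the same direction over all genes, 650, was 299 without cytochalasin B control replicate 1, and 353, 429 and 415 without co-treated replicates 2 and 1 and control replicate 2.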

How the data were processed

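Read counts per gene, as deposited by the authors, were used without change. Per the labels and the study's methods, the authors made the libraries with SMART-Seq HT from polyadenylated RNA. They used Trimmomatic for trimming and STAR for alignment (mm10), keeping only reads that aligned uniquely. Pairs were counted with featureCounts over genes and transposable element copies together. Pairs touching more than 1 feature were not counted and strand was not used, so reads of overlapping or antisense genes cannot be told apart. Reads that fit near-identical copies equally well were dropped, so counts of such genes are uncertain and may be too low. The 1755056 transposable element rows were not used here.

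Genes were tested with edgeR 4.0.16 (R 4.3.3) by the quasi-likelihood test with TMM factors over all 25 libraries, which share 1 estimate of the spread, on genes of the autosomes that averaged 1 read or more per library. A gene was called at a Benjamini-Hochberg adjusted p under 0.05 over all genes tested and a fold change over 2; the value after ± is the standard error. Genes with 3 reads or fewer in each library of the lower group are given as bounds, which cover counting error only. The interaction and the comparison with A366 and UNC0638 used the same fit. The fits were tested on simulated data. DESeq2 1.42.0, RLE factors, other filters, other references, a replicate block and leaving out each library were tried. Genes named were called members of the lists and the largest changes by fold or normalized count, and for the interaction those of lowest p; *Mphosph10*, *Nip7*, *Utp4* and *Rpf2* were shown by sequence. The members and lists were chosen with earlier results of these data known. Some called genes are not reported here by name. Promoter letters were read from RefSeq windows.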

Additional observations from a re-analysis of the deposited data

Results flagged for a closer look

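The interaction term tests whether co-treatment departs from the sum of the log2 differences with TSA alone and with RK-701 alone, and its genes are given here because the effect of 1 drug differed with the other present. There were 359 genes above the sum and 194 below it. Of the genes named, those below the sum were *Pla2g4c* (interaction log2 -2.20), *Oosp1* (-2.13), *Pard3* (-1.80) and *Arid5b* (-1.27).

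Above the sum were the ribosomal genes *Rpl38* (interaction log2 2.15), *Rps6* (1.43) and *Rpl9* (1.20), the ribosome-related genes *Tma7* (1.79) and *Rpf2* (1.08), and the initiation factor gene *Eif2s2* (1.43). For RNA cleavage, splicing and decay, *Cstf2t* gave 1.89, *Sf3b6* 1.28, *Snrpa1* 1.05, *Ythdf2* 1.44 and *Btg1* 1.32. For energy, folding and turnover, *Atp5j* gave 1.78, *Cct4* 1.43, *Dnajb6* 1.56, *Psmd7* 1.26, *Ctsc* 1.49, *Gabarapl2* 1.34 and *Map1lc3b* 1.19. The embryo and germline genes *Dppa5a*, *Dppa3* and *Terb2* gave 1.28, 1.11 and 1.20. Without co-treated replicate 2, 9 genes were called in the interaction.

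For 12 of the 138 genes named with values, 1 of the 4 fertilized libraries lay far from the others by the gap rule of Dixon, which chance gives in about 1 of 20 groups.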

How the results depend on the processing

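Alternatives were counted as unchanged when a count stayed within 1.5 times its value. With DESeq2, 1101 genes were lower, 1097 of them outside the list, and 1028 were called in the interaction; RLE factors put 803 higher and 745 lower (51.9% higher). With only the compared groups fitted, 618 genes were called (382 higher, 236 lower), 476 outside the list (240 higher, 236 lower), 106 list members (79 higher, 27 lower), 65 in the interaction and 359 in both comparisons. Without a filter on low counts 891 genes were called in the interaction. Leaving out 1 library at a time gave 730 to 2472 genes called, 536 to 1559 higher and 145 to 913 lower; outside the list 557 to 2176 called, 387 to 1264 higher and 145 to 912 lower; 135 to 371 list members, 86 to 308 higher and 23 to 63 lower; 9 to 1035 in the interaction; 665 to 1985 with the other inhibitors and 299 to 743 shared. Leaving out 1 library at a time moved the log2 fold change of *Fst* from -10.26 to 0 and that of *Id2* from -2.28 to 0.057, the upper value in each case being without control replicate 1. Of 128 named genes called, 35 were called under all 13 alternatives; *Id2* changed sign and *Fst* reached 0. The causes were not tested. Having 2 libraries per group limits every call.

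Deviations from the group mean of same-numbered co-treated and control libraries correlated at r = 0.0445 over 25794 genes. With 2 libraries per group this cannot show whether the replicate numbers of the labels pair the libraries. With the replicate block 1341 genes were called (858 higher, 483 lower), 268 in the interaction and 1561 with the other inhibitors.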
